A study of Mus musculus with 12 samples.

Results

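The 10 genes described here encode the calcium-activated phosphatase calcineurin, its RCAN regulators and the NFAT transcription factors. They were taken by symbol: the calcineurin subunit genes Ppp3ca, Ppp3cb and Ppp3r1, the regulator genes Rcan1, Rcan2 and Rcan3, and the factor genes Nfatc1, Nfatc3, Nfatc4 and Nfat5. They are 10 of the 55536 genes in the deposited read-count table, and all 10 were among the 14499 left for testing once genes with few counts had been removed. Bulk paired-end RNA sequencing had been done on 12 samples of C2C12 cells carrying GFP, an established mouse myoblast line, after differentiation towards myotubes on 4 kinds of plate. The Control samples grew on uncoated plates. The Collagen I and Fibronectin samples grew on plates coated with the named matrix protein, each at 5 µg per cm2 by the study's methods. The Geltrex samples grew on a thin gel of Geltrex, a basement membrane extract. Each group held 3 samples, and all shared the cell line and the differentiation protocol. When in differentiation the RNA was taken is not stated. Nothing says whether the 3 samples of a group were separate cultures, so the p-values measure only the spread between these samples.

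Calcineurin is a heterodimer of a catalytic A subunit and a calcium-binding B subunit, and it is switched on by calcium and calmodulin. Once active it removes phosphates from the calcium-responsive NFAT factors, which then enter the nucleus, while several kinases put the phosphates back and the factors are exported again. In skeletal muscle this route is known for its part in myoblast differentiation and fusion and in the slow fiber program, and RCAN proteins bind calcineurin and tune it. The activity of calcineurin and the location of NFAT are set by calcium and phosphorylation, and transcript counts measure neither.

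Total counts were 24147733, 27334546 and 23812461 in Control samples 1, 2 and 3, and 22598438, 26231581 and 23339363 in the Collagen I samples. They were 27351766, 24614474 and 25734771 in Fibronectin, and 23574363, 24477732 and 22520404 in Geltrex. Depth overlapped between the groups of each comparison except Fibronectin vs Geltrex, where every Fibronectin total lay above every Geltrex total. Levels are given as TMM-scaled CPM, read counts relative to the scaled library size, in the order of samples 1, 2 and 3, unless another scale is named. A gene was called when its adjusted p was at most 0.05 in an edgeR quasi-likelihood test over all 14499 genes.

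The cultures differed in their muscle markers. The 8 myotube markers (Myog, Mymk, Mymx, Ckm, Acta1, Myh3, Mylpf and Des) summed to 8673, 8809 and 7872 CPM in Control and to 8773, 8463 and 8487 CPM in Collagen I. Their sums were 3128, 2638 and 2870.4 CPM in Fibronectin and 4219, 3953 and 4100.4 CPM in Geltrex. Every Fibronectin and Geltrex sample lay below every Control and Collagen I sample, and no marker was at 0. By group mean the most abundant marker was Myh3 in Control and Collagen I, Des in Fibronectin and Mylpf in Geltrex. All 8 were called lower on Fibronectin and all 8 lower on Geltrex than in Control. On Collagen I 0 of 8 were called by edgeR, 1 had an unadjusted p below 0.05, and DESeq2 called 1.

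The 8 proliferating myoblast markers (Myf5, Pax7, Mki67, Top2a, Ccnb1, Cdk1, Id1 and Id3) summed to 218, 235 and 246 CPM in Control and to 191, 178 and 194 CPM in Collagen I. Their sums were 539, 679.9 and 579.8 CPM in Fibronectin and 562, 608 and 618 CPM in Geltrex. The Fibronectin and Geltrex samples were again set apart from the others, here on the high side, and no marker was at 0 in any sample. Top2a was the most abundant marker by group mean in each of the 4 groups. On each of these coatings 4 of 8, namely Mki67, Top2a, Ccnb1 and Cdk1, were called higher than in Control. Myf5, Pax7, Id1 and Id3 were not called there. In Control, Fibronectin and Geltrex their means were 34.2, 36.1 and 33.03 CPM for Myf5 and 0.558, 0.487 and 0.217 CPM for Pax7. They were 12.4, 12.7 and 10.029 CPM for Id1 and 23.2, 22.3 and 28.5 CPM for Id3. Pax7 had only 2 to 19 counts per sample. The higher sums thus came mainly from the called markers. On Collagen I every sum lay below every Control sum and all 8 log2 fold changes were negative (-1.17 to -0.072). There 0 of 8 were called by edgeR, 4 had an unadjusted p below 0.05, and DESeq2 called 1 lower. Bulk counts cannot tell fewer cells of a type from less RNA per cell, which holds for each gene below.

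Markers of other cell types were read as well. The 4 fibroblast markers (Pdgfra, Thy1, Dpt and Lum) had mean sums of 132 CPM in Control, 118 in Collagen I, 93.9 in Fibronectin and 65.8 in Geltrex. Thy1 had 0 counts in every sample. Lum was the most abundant in Control (90.5 CPM), Collagen I (86.4) and Fibronectin (53.8), and Pdgfra in Geltrex (42.9, against 19.2 for Lum). Lum was called lower on Fibronectin (log2 fold change -0.75) and on Geltrex (-2.24) than in Control. Pdgfra and Dpt were not called there. In Control, Fibronectin and Geltrex their means were 38.3, 37.1 and 42.9 CPM for Pdgfra and 3.54, 2.91 and 3.69 CPM for Dpt. The lower sums thus came mainly from Lum. On Collagen I 0 of 3 tested were called by edgeR, 1 had an unadjusted p below 0.05, and DESeq2 called 1 lower. There Pdgfra gave -0.49 (adjusted p 0.0552), with every Collagen I sample below every Control sample. The 4 adipocyte markers (Adipoq, Plin1, Fabp4 and Cidec) summed to at most 0.431 CPM in any sample, and the 4 osteoblast markers (Bglap, Sp7, Ibsp and Alpl) to at most 0.318 CPM, with Ibsp at 0 throughout. The part of the marker differences in the results on the 10 genes was not tested.

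**Figure D1:**
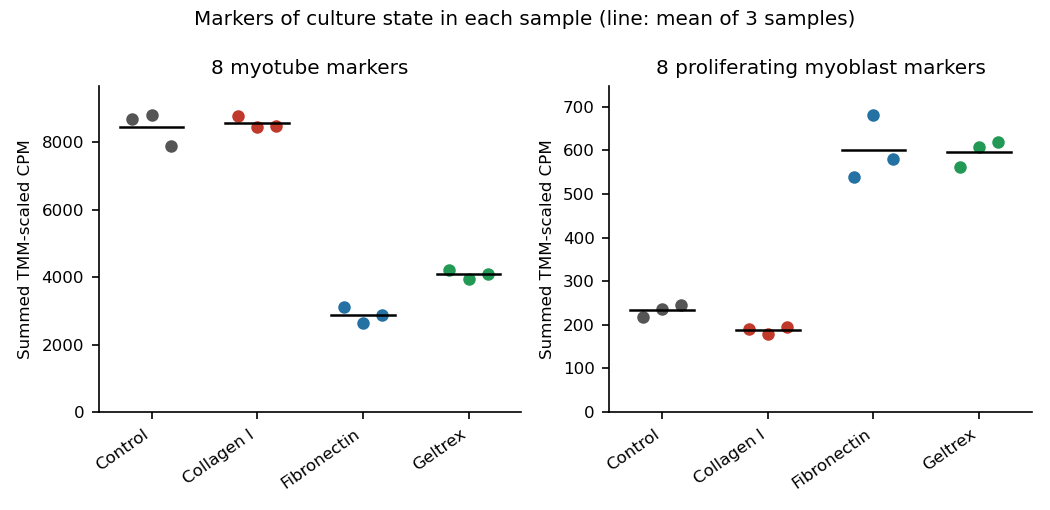
Summed TMM-scaled CPM (vertical axis) of the 8 myotube markers and the 8 proliferating myoblast markers in each of the 12 samples, by group; lines mark the means of 3 samples. Fibronectin and Geltrex samples reach at most 4219 CPM for the first list and at least 539 CPM for the second, apart from all Control and Collagen I samples.

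The libraries also differed in how long genes stood against short genes. For each sample, the median log2 deviation from the gene's mean over 12 samples was taken in the 2901 tested genes with the longest exons (at least 7252 bases) and in the 2900 with the shortest (at most 2092 bases). The length gap is the former minus the latter. It was -0.26, 0.057 and -0.12 in Control, -0.17, -0.089 and -0.49 in Collagen I, 0.28, 0.34 and 0.072 in Fibronectin, and 0.068, 0.082 and 0.14 in Geltrex. Long genes thus stood relatively high in every Fibronectin and Geltrex sample and relatively low in every Collagen I sample, with Collagen I 3 the lowest, and Control 2 alone among the Control samples was above 0. The median log2 fold change of the longest genes was 0.17 in Fibronectin vs Control, against -0.18 for the shortest genes. A fit with the length gap as a covariate was added after the data had been seen, and its values are given with the calls of the 10 genes that it ended. Ppp3ca, Ppp3cb, Nfatc1, Nfatc3 and Nfat5 belong to the longest class, and the other 5 of the 10 genes to neither class.

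Against Control, the fewest of the 10 genes were called on Collagen I and the most on Fibronectin. In Collagen I vs Control, 0 of 10 were called higher and 1 lower, Nfatc1, where 0.2% and 0.917% of all tested genes were called. For the higher direction edgeR gave 0; in both directions together 3 of 10 had an unadjusted p below 0.05, and DESeq2 called 1. In Fibronectin vs Control, 4 were called higher (Rcan2, Rcan3, Nfatc3 and Nfat5) and 2 lower (Rcan1 and Nfatc4), against 17.1% and 14.7% of all genes. In Geltrex vs Control, 2 were called higher (Rcan2 and Rcan3) and 1 lower (Nfatc4), against 16.4% and 16.6%. All 3 comparisons use the same Control samples. The count on Fibronectin stood above the share of all genes called, and the count on Geltrex near it. Of the genes with the longest exons, 34.4% were called higher on Fibronectin, and Nfatc3 and Nfat5 belong to that class. The median absolute log2 fold change of the 10 genes was 0.13 on Collagen I (0.14 over all tested genes), 0.29 on Fibronectin (0.26) and 0.14 on Geltrex (0.25).

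Coatings were also tested against each other. Between Collagen I and Fibronectin, 1 of 10 was called higher (Rcan1) and 3 lower (Nfatc1, Nfatc3 and Nfat5), where 22.1% and 22.9% of all tested genes were called. Collagen I vs Geltrex had 1 called higher (Rcan1) and 2 lower (Ppp3cb and Nfatc1), against 18.2% and 19%. These counts lay near the shares over all genes. In Fibronectin vs Geltrex, 0 were called higher and 0 lower by edgeR, against 10.3% and 9.06%; 3 had an unadjusted p below 0.05, and DESeq2 called 2, Rcan1 and Nfat5. Median absolute log2 fold changes of the 10 genes were 0.198, 0.201 and 0.157 in these comparisons, below 0.331, 0.282 and 0.210 over all tested genes.

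**Figure D2:**
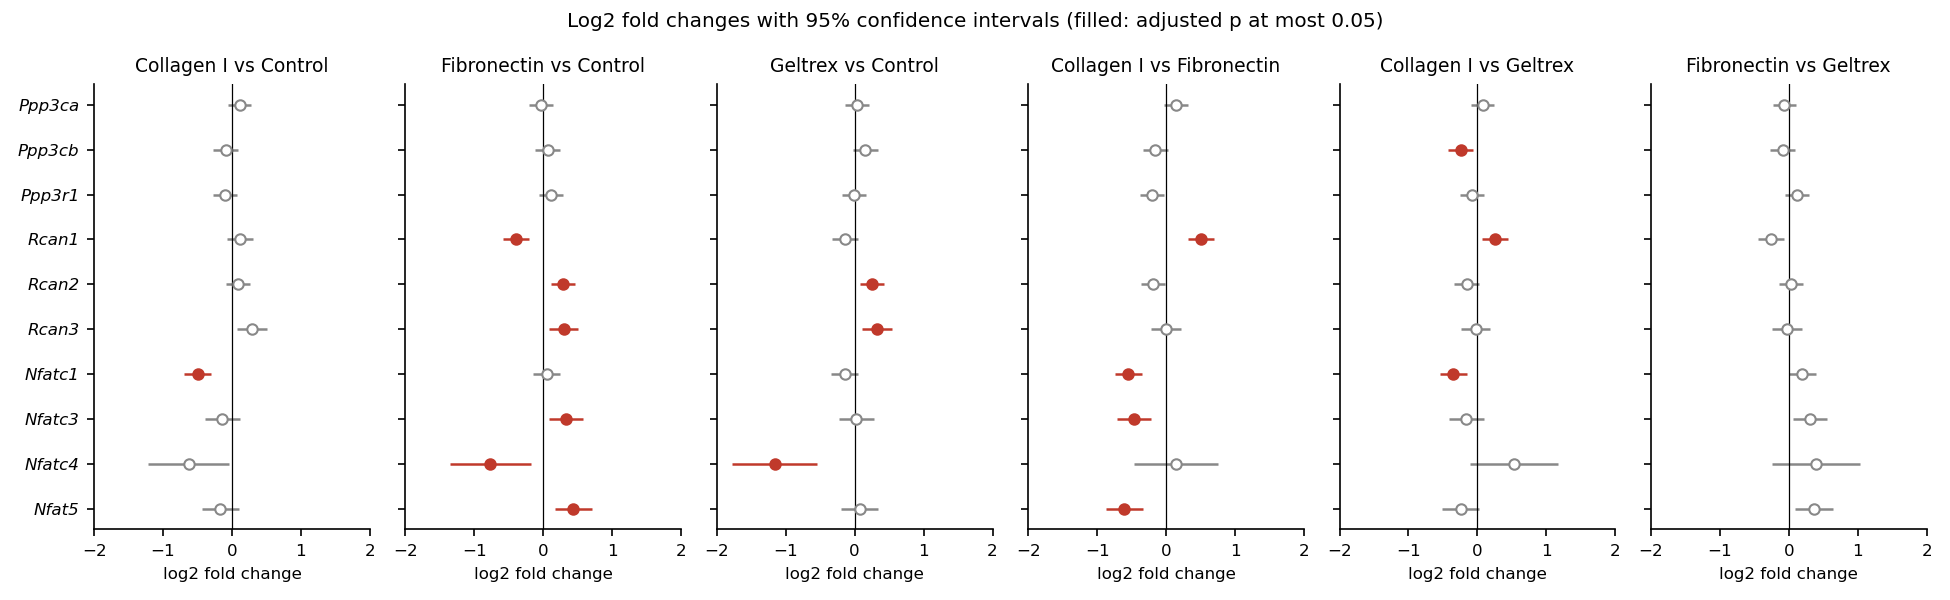
Log2 fold changes (horizontal axes) of the 10 genes in the 6 comparisons of 3 against 3 samples, from edgeR; bars are 95% confidence intervals and filled points have an adjusted p of at most 0.05. Points for Ppp3ca lie between -0.066 and 0.14 in all 6 panels, and Nfatc4 has the widest intervals.

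These counts depended on single libraries. In Collagen I vs Control, 0 of the 10 members were called without Control 2, Control 3, Collagen I 1 or Collagen I 2. In Fibronectin vs Control, the 6 calls became 1 without Control 1, 3 without Fibronectin 1 and 2 without Fibronectin 2. In Geltrex vs Control, the 3 calls became 1 without Geltrex 1 or Geltrex 2. The 3 calls of Collagen I vs Geltrex became 1 without Collagen I 3, Geltrex 1, Geltrex 2 or Geltrex 3. In Fibronectin vs Geltrex, the count of 0 became 1 without Control 1 or Collagen I 2, 2 without Collagen I 3 and 3 without Fibronectin 3. With the length gap as a covariate, 0 members were called by edgeR in Fibronectin vs Control and 1 in Collagen I vs Fibronectin. In Collagen I vs Geltrex the calls of Rcan1, Ppp3cb and Nfatc1 were lost. The call of Nfatc1 in Collagen I vs Control and those of Rcan2, Rcan3 and Nfatc4 in Geltrex vs Control held. Nfatc3 became called, with its sign turned, in Geltrex vs Control (-0.19, adjusted p 0.0191) and Collagen I vs Geltrex (0.21, adjusted p 0.0447).

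Ppp3ca (ENSMUSG00000028161, chr3:136670124-136937727) encodes the alpha isoform of the catalytic subunit. All positions are those of the GENCODE M21 annotation of GRCm38. It stood at 266, 284 and 299 CPM in Control, 280.1, 297 and 338 in Collagen I, 272, 284 and 274 in Fibronectin, and 293, 291 and 285 in Geltrex. The group ranges overlapped in every comparison except Fibronectin vs Geltrex, where 284 and 285 CPM nearly met, and Collagen I 3 was the highest sample. Ppp3ca was not called in any of the 6 comparisons or in any of 20 refits of the data (other scaling, tool, filter, samples or terms). In 1 of the refits the Geltrex samples are summed into 1, so that the spread comes from the other groups alone; a call lost there says nothing on how steady a Geltrex difference is. A minimum fold of 2 is not among these refits, and it ended every call of the 10 genes except that of Nfatc4 in Geltrex vs Control. The widest difference of Ppp3ca was in Collagen I vs Fibronectin, a log2 fold change of 0.14 (95% confidence interval -0.028 to 0.31, adjusted p 0.161). Counts for Ppp3ca ran from 6310 to 8003 per sample.

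Ppp3cb (ENSMUSG00000021816, chr14:20499364-20546573) encodes the beta isoform. It stood at 134, 152 and 134 CPM in Control, 138, 141 and 115 in Collagen I, 147, 145 and 147 in Fibronectin, and 150.1, 164 and 153 in Geltrex. Every Geltrex sample lay above every Collagen I sample, and Collagen I 3 was the lowest of all. Ppp3cb was 1.19-fold lower on Collagen I than on Geltrex (log2 fold change -0.25, SE 0.086, adjusted p 0.0355). It was called in 14 of 20 refits, over which the adjusted p ran from 0.0190 to 0.569. The call was lost without Collagen I 3 (log2 fold change -0.16), Geltrex 1 (-0.28), Geltrex 2 (-0.21) or Geltrex 3 (-0.26), and with the length gap as a covariate (-0.072). Against Control it was not called on any coating.

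The regulatory B subunit is encoded by Ppp3r1 (ENSMUSG00000033953, chr11:17159263-17200375), which makes the catalytic subunit responsive to calcium. It stood at 208, 236 and 229.8 CPM in Control, 222, 220.1 and 188 in Collagen I, 248, 249 and 228 in Fibronectin, and 222, 226 and 219 in Geltrex. All Fibronectin samples lay above all Collagen I samples, and Collagen I 3 was again the lowest. The log2 fold change in Collagen I vs Fibronectin was -0.20 (SE 0.082, adjusted p 0.0534), which missed the threshold. It passed in 4 of 20 refits, among them DESeq2 and the fits without Control 1 (-0.20, adjusted p 0.0452) or Fibronectin 3 (-0.25, adjusted p 0.0355), within a range of 0.0311 to 0.685. Exons of Wdr92 on the same strand share 14.3% of the exon bases of Ppp3r1, and how reads there were assigned is not stated, so its level is uncertain by that overlap.

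Beside these, the gamma catalytic isoform Ppp3cc stood at 19.96 to 24.5 CPM in the 12 samples and was not called in any comparison. Ppp3r2, the B subunit gene known from testis, had 2 to 10 counts per sample and did not pass the filter. Per kilobase of exon, mean levels over the 12 samples were 69.6 CPM per kb for Ppp3r1, 28.9 for Ppp3ca, 16.3 for Ppp3cb and 7.34 for Ppp3cc. The B subunit transcript thus had the highest level of the 4 on this scale, and Ppp3ca the highest of the catalytic isoforms. Of the summed catalytic CPM per kb, Ppp3ca made up 55.0% ± 0.999 (SD, n = 3) in Control, 57.8% ± 4.10 in Collagen I, 53.4% ± 0.535 in Fibronectin and 53.9% ± 0.538 in Geltrex. The share in Collagen I 3, 62.4%, was the highest of all, and the group ranges otherwise lay close together.

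**Figure D3:**
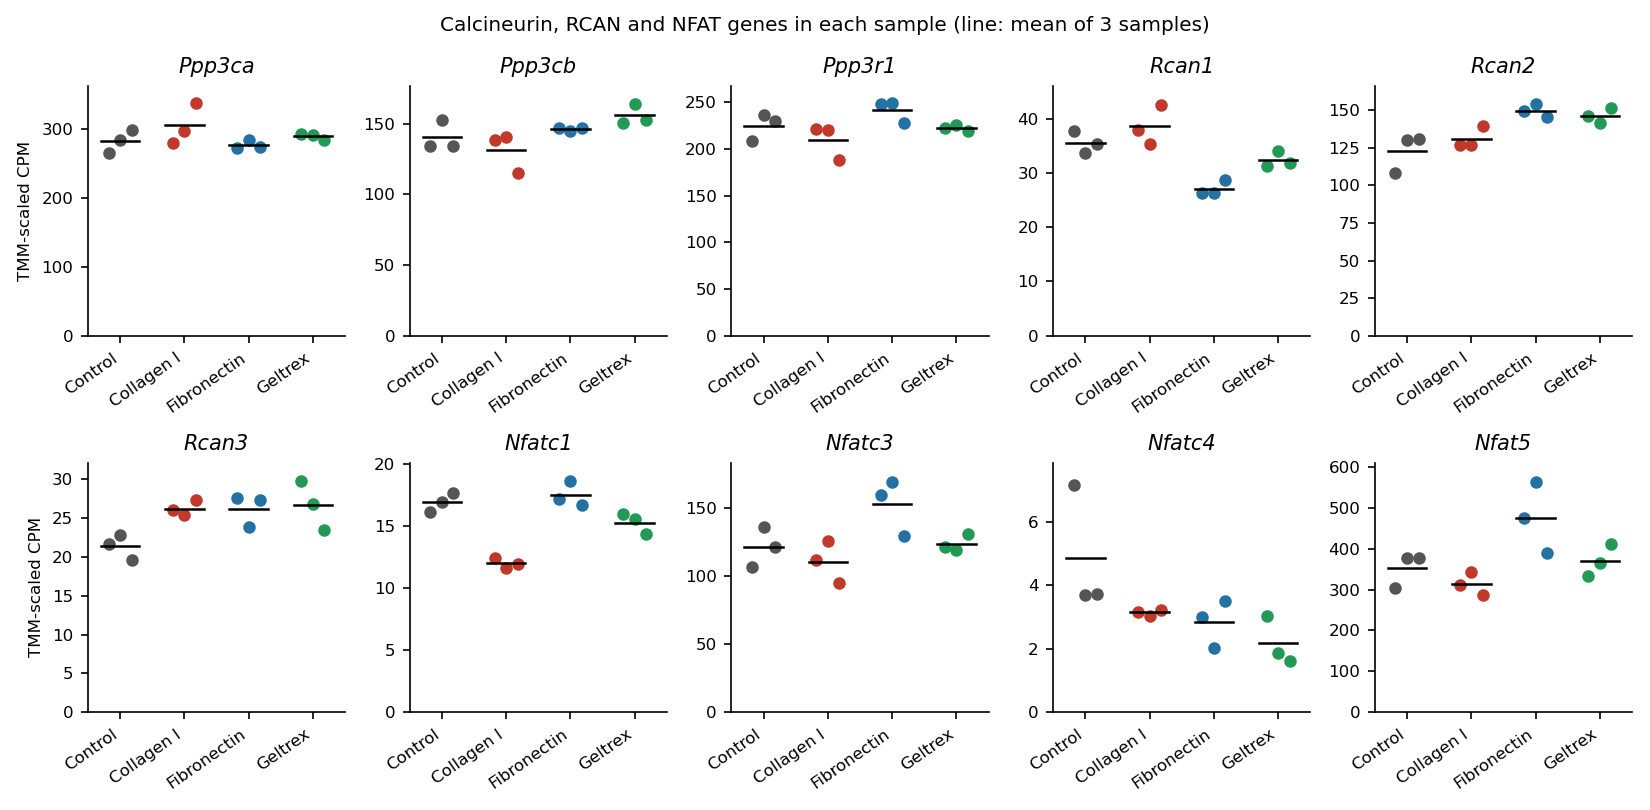
TMM-scaled CPM (vertical axes, from 0) of each of the 10 genes in the 12 samples, by group; points within a group run from sample 1 to 3 and lines mark the means. Rcan1 is lowest in the 3 Fibronectin samples, Nfatc1 lowest in the 3 Collagen I samples, and Nfatc4 highest in Control 1 at 7.16 CPM.

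Rcan1 (ENSMUSG00000022951, chr16:92391953-92470867) encodes a calcineurin-binding protein, and its gene is known as a target of NFAT that feeds back on the phosphatase. It stood at 37.9, 33.7 and 35.5 CPM in Control, 38.1, 35.4 and 42.7 in Collagen I, 26.4, 26.3 and 28.8 in Fibronectin, and 31.3, 34.1 and 32.0 in Geltrex. The 3 Fibronectin samples were the lowest of the 12, with no overlap with any other group, and Collagen I 3 was the highest. Rcan1 fell by 0.39 (log2, SE 0.088, adjusted p 0.00321) on Fibronectin against Control, or 1.31-fold. On Collagen I it was 1.42-fold higher than on Fibronectin (log2 fold change 0.51, SE 0.088, adjusted p 0.000299). It was also higher on Collagen I than on Geltrex (0.25, SE 0.088, adjusted p 0.0323). Collagen I vs Control gave 0.12 (95% confidence interval -0.067 to 0.30, adjusted p 0.544) and Geltrex vs Control -0.14 (-0.32 to 0.050, adjusted p 0.257), with overlapping groups. Fibronectin vs Geltrex gave -0.26 with an adjusted p of 0.0538, so the samples did not overlap but the threshold was missed.

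The calls of Rcan1 on Fibronectin held in 19 of 20 refits, both against Control and against Collagen I. Among these refits the exception was the length gap as a covariate, which gave -0.20 (adjusted p 0.118) against Control and 0.24 (adjusted p 0.15) for Collagen I against Fibronectin. Both are the upper ends of ranges over the refits that began at 0.000436 and 1.61e-06. Across the 12 samples, log2 CPM of Rcan1 had a Pearson correlation of -0.938 with the length gap, samples of a group sharing both their kind of plate and much of their gap. The part of the gap in the result was not tested further. For Collagen I vs Geltrex, Rcan1 kept its call in 12 of 20 refits. With the length gap as a covariate the value was 0.055 (adjusted p 0.694), with no filter on low counts it was 0.25 (adjusted p 0.102), and the call was lost in both. It was lost as well with the Geltrex samples summed into 1. The call was also lost without Collagen I 1 (0.26), Collagen I 3 (0.18), Geltrex 1 (0.22), Geltrex 2 (0.29) or Geltrex 3 (0.24). In Fibronectin vs Geltrex it became called without Collagen I 2 (-0.26, adjusted p 0.0457), Collagen I 3 (-0.26, adjusted p 0.0252) or Fibronectin 3 (-0.30, adjusted p 0.0403).

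The RCAN genes together serve as the transcript readout of the pathway, and they did not move as 1. On Fibronectin Rcan1 was called lower than in Control, and Rcan2 and Rcan3 higher. Sequences are shown for the starts of Rcan1, the gene named above as a known target of NFAT. RefSeq (GRCm38.p6) lists 2 starts, 66091 bases apart, and both windows lie within the gene as GENCODE M21 annotates it. The downstream start is known as the one that answers to NFAT. The 250 bases before each start are printed on the minus strand of the gene, 5′ to 3′, with GGAAA, the core of NFAT binding sites, or its reverse complement TTTCC in capitals.
Rcan1 upstream start, chr16:92466170-92466419: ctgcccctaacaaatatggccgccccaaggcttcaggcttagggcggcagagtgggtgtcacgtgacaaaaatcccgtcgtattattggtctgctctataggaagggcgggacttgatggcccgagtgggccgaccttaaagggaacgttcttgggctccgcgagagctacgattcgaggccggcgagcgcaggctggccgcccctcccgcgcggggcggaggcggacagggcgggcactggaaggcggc
Rcan1 downstream start, chr16:92400079-92400328: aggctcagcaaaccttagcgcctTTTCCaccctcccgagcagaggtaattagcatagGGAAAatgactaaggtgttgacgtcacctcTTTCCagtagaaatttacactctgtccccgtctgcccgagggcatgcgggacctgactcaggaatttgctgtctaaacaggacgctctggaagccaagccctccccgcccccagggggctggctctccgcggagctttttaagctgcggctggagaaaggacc
The window of the upstream start held 0 matches to GGAAA on either strand and that of the downstream start 3. At least 3 matches occurred in 6.39% of 32851 starts, and at least 1 in 55.6%. The downstream window also held 1 match to TGANTCA, the AP-1 motif, which 6.75% of all starts hold, and the upstream window 0. TGANTCA reads the same on both strands, and its match shared 0 bases with those to GGAAA. Among the other members with a start in the table, Ppp3cb and Nfatc4 held 3 matches to GGAAA, Nfat5 and the first start of Rcan2 held 2, and the third start of Rcan2 held 1 to TGANTCA. Rcan3 and the first start of Nfatc3 held 1 match to GGAAA, the window of Ppp3r1 held 0, and the table has no start for Ppp3ca or Nfatc1. A match is a run of letters, not a bound site. Gene-level counts cannot tell transcripts of the 2 starts apart.

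Rcan2 (ENSMUSG00000039601, chr17:43801351-44039516) encodes a related calcineurin regulator. It stood at 108, 130.3 and 131 CPM in Control, 127, 127 and 139.8 in Collagen I, 149.8, 154 and 145 in Fibronectin, and 146, 141 and 151 in Geltrex. Every Fibronectin and Geltrex sample lay above every Control and Collagen I sample, and Control 1 was the lowest. Rcan2 was 1.22-fold higher on Fibronectin than in Control (log2 fold change 0.28, SE 0.083, adjusted p 0.0162) and 1.19-fold higher on Geltrex (0.25, SE 0.083, adjusted p 0.0304). Collagen I vs Control gave 0.092 (adjusted p 0.626). Collagen I vs Fibronectin gave -0.19 (adjusted p 0.0700), and passed the threshold without Control 1 (-0.19, adjusted p 0.0370) or Collagen I 3 (-0.24, adjusted p 0.0455). The call on Fibronectin was lost without Control 1 (0.20) or Fibronectin 2 (0.26) and with the length gap as a covariate (0.25). That on Geltrex was lost without Control 1 (0.16), Geltrex 1 (0.26), Geltrex 2 (0.28) or Geltrex 3 (0.23).

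Rcan3 (ENSMUSG00000059713, chr4:135412308-135433853), the remaining member of the RCAN family, stood at 21.7, 22.9 and 19.7 CPM in Control and 26.0, 25.5 and 27.3 in Collagen I. It stood at 27.6, 23.8 and 27.3 CPM in Fibronectin and 29.9, 26.8 and 23.5 in Geltrex. All 9 samples on coated plates lay above all 3 Control samples. Rcan3 was 1.23-fold higher on Fibronectin than in Control (log2 fold change 0.29, SE 0.10, adjusted p 0.0363) and 1.25-fold higher on Geltrex (0.32, SE 0.10, adjusted p 0.0234). On Collagen I the log2 fold change was 0.29 (SE 0.10, unadjusted p 0.0105), yet the adjusted p was 0.178. No difference between coatings was called for Rcan3 by edgeR, and Collagen I vs Fibronectin gave -0.00025 (95% confidence interval -0.21 to 0.21). The call on Fibronectin was lost without Control 1 (0.30), Control 3 (0.24), Fibronectin 1 (0.26) or Fibronectin 3 (0.27) and with the length gap as a covariate (0.36). Requiring 10 counts in every sample or comparing only the 2 groups also ended it, and it held in 13 of 20 refits. The call on Geltrex was lost without Control 3 (0.26), Geltrex 1 (0.24) or Geltrex 2 (0.33).

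Within the RCAN family, per kilobase of exon, mean levels were 31.5 CPM per kb for Rcan2, 10.9 for Rcan1 and 4.92 for Rcan3. Rcan1 made up 26.4% ± 2.94 (SD, n = 3) of the summed RCAN CPM per kb in Control, 26.3% ± 0.950 in Collagen I, 18.3% ± 1.05 in Fibronectin and 21.4% ± 1.17 in Geltrex. In single samples these shares were 29.8%, 24.2% and 25.4% in Control, 26.6%, 25.2% and 27.1% in Collagen I, 17.7%, 17.6% and 19.5% in Fibronectin, and 20.5%, 22.7% and 20.9% in Geltrex. The Rcan1 share was thus lower in every Fibronectin and Geltrex sample than in every Control and Collagen I sample, a description that was not tested. Rcan2 held the largest share in every group, from 62.9% in Collagen I to 71.1% in Fibronectin.

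Nfatc1 (ENSMUSG00000033016, chr18:80606205-80713071) encodes a calcium-responsive NFAT factor that in muscle is known for reading slow nerve activity. It stood at 16.1, 16.9 and 17.6 CPM in Control, 12.4, 11.6 and 11.9 in Collagen I, 17.2, 18.6 and 16.7 in Fibronectin, and 16.0, 15.5 and 14.3 in Geltrex. The 3 Collagen I samples were the lowest of the 12 and did not overlap any other group. On Collagen I Nfatc1 was 1.41-fold lower than in Control (log2 fold change -0.50, SE 0.093, adjusted p 0.0164). It was 1.46-fold lower than on Fibronectin (-0.54, SE 0.093, adjusted p 0.000274) and 1.28-fold lower than on Geltrex (-0.35, SE 0.094, adjusted p 0.00842). Neither Fibronectin vs Control (0.049, adjusted p 0.718) nor Geltrex vs Control (-0.15, adjusted p 0.249) was called.

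The call of Nfatc1 in Collagen I vs Fibronectin held in 20 of 20 refits. Against Control the log2 fold change stayed between -0.53 and -0.47 in all 20, and the adjusted p ran from 0.000551 to 0.116. The call was lost without Control 2 (-0.49, adjusted p 0.0643), Control 3 (-0.47, adjusted p 0.0611), Collagen I 1 (-0.52, adjusted p 0.0501) or Collagen I 2 (-0.47, adjusted p 0.0789). It held with the length gap as a covariate (-0.48, adjusted p 0.00931). Against Geltrex the gap as a covariate gave -0.31 (adjusted p 0.0699), within a range of 0.00377 to 0.0996 over the refits. Counts for Nfatc1 ran from 277 to 462 per sample.

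Nfatc3 (ENSMUSG00000031902, chr8:106058840-106130537) encodes another calcium-responsive factor. It stood at 107, 137 and 122 CPM in Control, 112, 126 and 94.7 in Collagen I, 159.8, 169.6 and 129.7 in Fibronectin, and 121, 119 and 131 in Geltrex. Fibronectin 1 and 2 were the highest samples, Collagen I 3 the lowest, and Fibronectin 3 lay within the Control range. On Fibronectin Nfatc3 was 1.26-fold higher than in Control (log2 fold change 0.33, SE 0.12, adjusted p 0.0441), with overlapping groups. On Collagen I it was 1.38-fold lower than on Fibronectin (-0.47, SE 0.12, adjusted p 0.00491), with no overlap. Collagen I vs Control gave -0.14 (adjusted p 0.606), Geltrex vs Control 0.023 (adjusted p 0.904) and Fibronectin vs Geltrex 0.31 (adjusted p 0.0826). Up to 1.87% of its exon bases are shared with Esrp2 on the opposite strand, and the strand setting of the counting is not stated.

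The call of Nfatc3 on Fibronectin against Control held in only 8 of 20 refits, with adjusted p from 0.00475 to 0.739. It was lost without Control 1 (0.24), Control 3 (0.33), Collagen I 1 (0.33), Fibronectin 1 (0.30), Fibronectin 2 (0.25), Geltrex 1 (0.34), Geltrex 2 (0.33) or Geltrex 3 (0.33). Fibronectin vs Geltrex became called without Fibronectin 3 (0.41, adjusted p 0.0221). Log2 CPM of Nfatc3 had a Pearson correlation of 0.929 with the length gap over the 12 samples. With the gap as a covariate, the log2 fold change was -0.044 (adjusted p 0.739) in Fibronectin vs Control, 0.060 (adjusted p 0.722) in Collagen I vs Fibronectin, and -0.19 (adjusted p 0.0191) in Geltrex vs Control. Collagen I vs Geltrex, not called before, gave 0.21 (adjusted p 0.0447). The sign thus turned in each of these, and in Geltrex vs Control and Collagen I vs Geltrex the gene passed the threshold.

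Nfatc4 (ENSMUSG00000023411, chr14:55823144-55833943) encodes the least abundant of the tested NFAT factors. It stood at 7.16, 3.71 and 3.74 CPM in Control, 3.16, 3.05 and 3.23 in Collagen I, 3.01, 2.01 and 3.495 in Fibronectin, and 3.03, 1.85 and 1.62 in Geltrex. All 3 Control samples lay above all others, with Control 1 well above Control 2 and 3, and the levels rest on 36 to 180 counts per sample. On Geltrex Nfatc4 was 2.24-fold lower than in Control (log2 fold change -1.16, SE 0.29, adjusted p 0.00559). On Fibronectin it was 1.71-fold lower (-0.77, SE 0.28, adjusted p 0.0437), and on Collagen I the log2 fold change was -0.63 (unadjusted p 0.0367, adjusted p 0.304). Without Control 1 the Fibronectin value became -0.39 (adjusted p 0.317, within a range of 0.00129 to 0.726) and the Collagen I value -0.24. The Geltrex value was then -0.77 (adjusted p 0.0397).

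That call on Fibronectin was also lost for Nfatc4 without Collagen I 1 (-0.77), Fibronectin 1 (-0.81), Fibronectin 2 (-0.58) or Geltrex 2 (-0.77), and with the length gap as a covariate (-0.20). The call on Geltrex held in 19 of 20 refits, all but that with the Geltrex samples summed into 1, with log2 fold changes from -1.47 to -0.77. With the gap as a covariate it was -0.80 (adjusted p 0.0347). Differences between the coatings were not called for Nfatc4, and their intervals were wide: Fibronectin vs Geltrex gave 0.39 (95% confidence interval -0.25 to 1.03).

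Nfat5 (ENSMUSG00000003847, chr8:107293470-107379517) encodes the family member that answers to tonicity and lacks the calcineurin-binding region of the others. It stood at 303, 377 and 378 CPM in Control, 311, 344 and 286 in Collagen I, 476, 563 and 391 in Fibronectin, and 334, 366 and 411 in Geltrex. All Fibronectin samples lay above all Control and Collagen I samples, Fibronectin 2 the highest, and Fibronectin 3 lay within the Geltrex range. On Fibronectin Nfat5 was 1.35-fold higher than in Control (log2 fold change 0.43, SE 0.13, adjusted p 0.0163). On Collagen I it was 1.52-fold lower than on Fibronectin (-0.60, SE 0.13, adjusted p 0.00140). Fibronectin vs Geltrex gave 0.36 (SE 0.13, adjusted p 0.0557), Geltrex vs Control 0.070 (adjusted p 0.715) and Collagen I vs Control -0.17 (adjusted p 0.549). Collagen I vs Geltrex was not called, and passed the threshold only with no filter on low counts (adjusted p 0.0474), in 1 of 20 refits.

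The call of Nfat5 on Fibronectin against Control was lost without Control 1 (0.34, adjusted p 0.0827) or Fibronectin 2 (0.30, adjusted p 0.0953), within a range of 4.46e-05 to 0.627. Fibronectin vs Geltrex became called without Control 1 (0.36, adjusted p 0.0388), Collagen I 3 (0.36, adjusted p 0.0462) or Fibronectin 3 (0.49, adjusted p 0.0107). The Pearson correlation of its log2 CPM with the length gap was 0.891 over 12 samples, and its exons, at 18378 bases, are the longest among the 10 genes. With the gap as a covariate, the log2 fold change was 0.094 (adjusted p 0.627) in Fibronectin vs Control and -0.12 (adjusted p 0.630) in Collagen I vs Fibronectin.

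**Figure D4:**
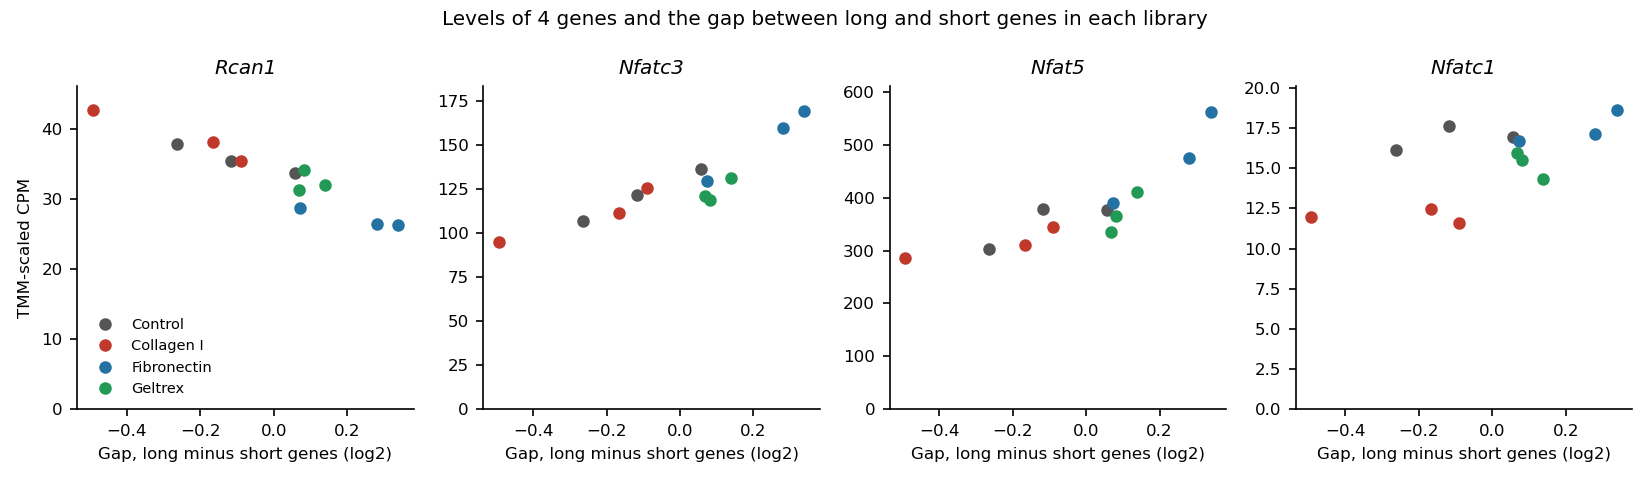
TMM-scaled CPM (vertical axes, from 0) of Rcan1, Nfatc3, Nfat5 and Nfatc1 against the length gap of each library (horizontal axes, log2), 1 point per sample, colored by group. Rcan1 declines and Nfatc3 and Nfat5 climb along the gap over the 12 samples, while the 3 Collagen I samples lie between 11.6 and 12.4 CPM for Nfatc1 at gaps of -0.49, -0.17 and -0.089.

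Per kilobase of exon, the order of the tested NFAT genes was Nfat5 at 20.6 CPM per kb over the 12 samples, Nfatc3 at 10.9, Nfatc1 at 2.06 and Nfatc4 at 0.561. Nfatc2, the remaining gene of the family, had 0 to 7 counts per sample and did not pass the filter. Of the summed CPM per kb of the 4 calcium-responsive genes (Nfatc1, Nfatc2, Nfatc3 and Nfatc4), Nfatc3 made up 76.8% ± 3.62 (SD, n = 3) in Control, 81.2% ± 2.41 in Collagen I, 81.9% ± 2.11 in Fibronectin and 81.2% ± 1.99 in Geltrex. Nfatc3 was the leading transcript of these in all 12 samples.

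Some of the 10 genes moved together from sample to sample. Over the 12 samples, the Pearson correlation of log2 CPM was 0.954 between Nfatc3 and Nfat5, 0.917 between Ppp3r1 and Nfatc3, and -0.919 between Rcan1 and Nfatc3. These genes also had the correlations with the length gap that lay farthest from 0: -0.938 for Rcan1, 0.929 for Nfatc3, 0.892 for Ppp3r1 and 0.891 for Nfat5. Ppp3cb had 0.787, Rcan2 0.636, Nfatc1 0.629, Nfatc4 -0.542, Ppp3ca -0.540 and Rcan3 0.118. The 12 points share 4 groups and 1 sequencing project, so they are a description of these libraries.

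Genes with patterns most like 3 of the 10 were named by Pearson correlation of log2 CPM over the 12 samples, among 8915 or 8916 genes with a mean of at least 10 CPM. For Rcan1 they included Ndufs8 (0.983), Ndufa7 (0.972), Txn2 (0.972) and Ndufs7 (0.970), of which the Nduf genes encode subunits of respiratory complex I. For Ppp3ca they included Kif3a (0.894), Utp3 (0.872), Rpl5 (0.865) and Nsa2 (0.862). For Nfatc4, the gene with the widest range of group means, they were Taf8 (0.903), Sbno2 (0.889), A4galt (0.878), Eif2b1 (0.877) and Hr (0.876).

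The other genes of the pathway were read as 7 lists. On Collagen I against Control 1 of them was called, Itpr2, an IP3 receptor that releases calcium from stores, which was higher (log2 fold change 0.48, SE 0.090, adjusted p 0.0171). That call held in 14 of 20 refits and was lost without Control 1, Control 2, Collagen I 1 or Collagen I 2, with log2 fold changes of 0.41 to 0.56 over the fits without 1 sample. On Fibronectin and Geltrex, members of each list were called against Control. The background shares are those given above for all genes.

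Upstream of calcineurin, 2 of 3 calmodulin genes were called higher on Fibronectin, Calm2 (0.34, adjusted p 0.00490) and Calm3 (0.25, adjusted p 0.0204), and 1 of 3 on Geltrex, Calm3 (0.37, adjusted p 0.00155). Of the store-operated and IP3 receptor channels, 9 of 11 passed the filter, and 4 were called higher and 2 lower on Fibronectin. On Geltrex 5 were higher and 2 lower, and DESeq2 called 5 higher and 1 lower. All 3 IP3 receptor genes were called higher on both coatings: Itpr1 by 0.49 and 0.65, Itpr2 by 0.33 and 0.67 and Itpr3 by 0.38 and 0.33 on Fibronectin and Geltrex. Orai1, a plasma membrane calcium channel subunit, fell by 0.56 on Fibronectin and by 0.58 on Geltrex. With the length gap as a covariate, 5 of the 6 Fibronectin calls were lost, those of Itpr1 (0.20), Itpr2 (0.26), Trpc1 (0.21), Orai1 (-0.27) and Stim1 (-0.25), and 2 of the 7 on Geltrex, those of Trpc1 (0.22) and Orai3 (-0.22). Single samples bore on some of these calls. Calm3 on Fibronectin was not called without Control 2 or Fibronectin 1 (lowest value 0.22), Itpr2 without Control 1 or Fibronectin 2 (lowest 0.26), and Orai1 without Control 1 or Fibronectin 2 (nearest to 0, -0.43). Orai1 on Geltrex was not called without Geltrex 3 (nearest to 0, -0.53). The Geltrex call of Orai3 (-0.29) held in 3 of 20 refits and, of the fits without 1 sample, only without Collagen I 3 or Fibronectin 2 (-0.32 to -0.23 over such fits). That of Trpc1 (0.43) held in 13 of 20 and was lost without Control 1, Control 3 or any Geltrex sample (0.34 to 0.53).

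Among 12 calcineurin anchors and other binding proteins, 11 passed the filter (Myoz3 did not), and 3 were called higher and 3 lower on Fibronectin, 4 higher and 2 lower on Geltrex. Myoz2, a sarcomeric protein that tethers calcineurin at the Z-disc, stood at a mean of 68.9 CPM in Control, 14.9 in Fibronectin and 16.8 in Geltrex. Its log2 fold changes were -2.21 (SE 0.10, adjusted p 1.3e-09) and -2.04 (SE 0.099, adjusted p 2.07e-09), and both calls held in 20 of 20 refits. Atp2b4, a plasma membrane calcium pump that binds calcineurin, was higher by 0.64 on Fibronectin and by 0.93 on Geltrex, also in 20 of 20 refits. With the length gap as a covariate, 4 of the 6 Fibronectin calls were lost, those of Cabin1 (0.21), Chp1 (0.21), Lmcd1 (-0.10) and Myoz1 (-1.52). The covariate also ended 2 of the 6 on Geltrex, those of Akap5 (1.16, against 1.08 before) and Myoz1 (-0.995, against -1.31). Myoz1 had 16 to 31 counts in each Control and Collagen I sample and 1 to 10 in each Fibronectin and Geltrex sample. It passed the filter only through the groups where it was high, so nothing is drawn from its lower calls. Akap5 had 6 to 18 counts per sample. On Fibronectin Cabin1 (0.23) also lost its call without Control 3, Fibronectin 1, Fibronectin 3 or Geltrex 3 (0.17 to 0.28 over the fits without 1 sample), Chp1 (0.26) without Control 1 (0.22 to 0.33), and Lmcd1 (-0.41) without Control 1, Control 3, Fibronectin 1 or Fibronectin 2 (-0.49 to -0.30). On Geltrex the 6 calls became 3 without Control 2 or Geltrex 2, where Akap5, Lmcd1 and Myoz1 were lost. Their values with all samples were 1.08, 0.46 and -1.31. Over the fits without 1 sample they ran from 0.95 to 1.34, 0.39 to 0.54 and -1.50 to -1.13. Akap5 and Myoz1 also lost theirs without Control 1, Geltrex 1 or Geltrex 3, and Myoz1 without Collagen I 1.

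Of 15 genes whose products act against NFAT, which are kinases, the export factor Xpo1 and the scaffold proteins Homer2 and Homer3, 14 passed the filter (Homer2 did not). On Fibronectin 3 were called higher, Gsk3b (0.47), Xpo1 (0.35) and Mapk9 (0.27), and 1 lower, Prkaca (-0.28). None of these 4 calls held with the length gap as a covariate, which gave 0.11 for Gsk3b, -0.0054 for Xpo1, 0.17 for Mapk9 and -0.18 for Prkaca. That of Xpo1 was also lost without Control 1, Fibronectin 1 or Fibronectin 2 (lowest value 0.27), and that of Mapk9 held in 6 of 20 refits and, of the fits without 1 sample, only without Control 3 or Fibronectin 1 (0.17 to 0.36 over such fits). On Geltrex 0 were called higher by edgeR and 1 lower, Mapk8 (-0.28, adjusted p 0.0333), while 3 of 14 had an unadjusted p below 0.05 and DESeq2 called 0 higher. The call of Mapk8 was lost without Control 2, Control 3, Fibronectin 1 or any Geltrex sample (-0.34 to -0.22).

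Of 11 MEF2, class IIa HDAC and related factors, 1 was called higher and 3 lower on Fibronectin, and 1 higher and 2 lower on Geltrex. Mef2c, a muscle transcription factor, fell by 1.30 on Fibronectin and by 1.42 on Geltrex, from a mean of 277 CPM in Control to 113 and 103. Hdac9, a repressor of MEF2, was higher by 1.09 on Fibronectin. The Fibronectin call of Mef2d (-0.26) held in 7 of 20 refits and, of the fits without 1 sample, only without Control 3, Collagen I 3 or Fibronectin 1 (-0.34 to -0.20 over such fits). That of Tfeb (-0.59) was lost with the length gap as a covariate (-0.46). Crtc3, the 1 higher on Geltrex (0.34), was not called without Control 1, Control 3, Geltrex 1 or Geltrex 3 (0.30 to 0.40). Of 9 calmodulin-dependent kinase genes, 3 were called higher and 2 lower on Fibronectin, and 2 higher and 2 lower on Geltrex. The 3 higher on Fibronectin include Camk4, and DESeq2, which did not call Camk4, called 2 higher and 2 lower there. Camk4 had 14, 14 and 11 counts in Fibronectin samples 1, 2 and 3, and 1 to 6 in every other sample. It passed the filter only through the group where it was high, so nothing is drawn from its higher call. With no filter on low counts Camk4 was not called. The Fibronectin calls of Camk4 (1.45) and Camk2d (0.25) were both lost without Control 1 and held in 11 of 19 and 7 of 20 refits. That of Camk4 was also lost without Control 3, Fibronectin 1 or Fibronectin 2 (1.34 to 1.61 over the fits without 1 sample). That of Camk2d was also lost without Control 2, Collagen I 1, Fibronectin 1, Fibronectin 2 or any Geltrex sample (0.18 to 0.32). Both were lost with the length gap as a covariate (0.63 and 0.037). Camk2b fell by 1.99 and 1.81 and Camk2a fell by 1.28 and 0.82 on Fibronectin and Geltrex, while Camk1d was higher by 0.83 and 0.78.

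Targets of NFAT5 in the response to tonicity formed the last list. Of 7, 6 passed the filter (Slc6a12 did not), and 0 were called higher and 4 lower on each of Fibronectin and Geltrex by edgeR, with medians of -0.45 and -0.47. In each, 4 had an unadjusted p below 0.05 and DESeq2 called 0 higher and 4 lower. Akr1b3, an aldose reductase that makes sorbitol, fell by 0.85 on Fibronectin (adjusted p 8.47e-07) and by 0.51 on Geltrex. Slc6a6, the taurine transporter, fell by 0.47 and 0.70, Slc5a3, the myo-inositol transporter, by 0.44 and 0.93, and Hspa1b, a heat shock chaperone, by 0.88 and 0.43. The call of Slc5a3 on Fibronectin was lost without Control 2 or Fibronectin 3 (nearest to 0, -0.35).

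Between coatings, the same lists also held called genes. For Collagen I vs Fibronectin, 6 of 11 tested anchors and binding proteins were called (4 higher, 2 lower). So were 5 of 14 genes of the list with NFAT kinases and Xpo1 (2 higher, 3 lower). Of 11 MEF2 and HDAC factors 4 were called (3 higher, 1 lower). Of 9 calmodulin-dependent kinases 6 were called (3 higher, 3 lower), and of 9 tested calcium channels 5 (2 higher, 3 lower). Over all tested genes 45.0% were called in this comparison, 37.1% in Collagen I vs Geltrex and 19.3% in Fibronectin vs Geltrex. The 6 kinases include Camk4 (-1.73), which passed the filter only through its Fibronectin counts, so nothing is drawn from its call. The anchors called against Fibronectin and against Geltrex include Myoz1 (2.11 and 1.39), which passed only through Control and Collagen I, and nothing is drawn from its calls. With the length gap as a covariate 4, 5, 2, 2 and 4 of the calls in these lists were lost. Among those lost, 5 turned sign, namely Cib1 (0.35 to -0.13), Lmcd1 (0.40 to -0.054), Camk1 (0.34 to -0.12), Mapk8 (-0.26 to 0.095) and Xpo1 (-0.49 to 0.0027). The call of Cib1 held in 6 of 20 refits, Camk1 in 13, Mapk8 in 14, Lmcd1 in 16 and Xpo1 in 19. Without 1 sample, their values nearest to 0 were 0.16, 0.22, -0.16, 0.27 and -0.36 in that order. For Collagen I vs Geltrex the counts in the same order, from the same numbers tested, were 5, 3, 3, 5 and 5. Of these 2, 2, 2, 2 and 1 were higher. The covariate ended 2, 3, 1, 0 and 3 of these calls in edgeR. There the 5 anchors became 3 without Geltrex 1, Geltrex 2 or Geltrex 3, the 3 kinases 1 without Geltrex 1, and the 3 MEF2 and HDAC factors 5 without Collagen I 3. The tonicity targets had 4 of 6 tested called higher in each of these comparisons, and the covariate ended 0 of these calls in edgeR. Without Collagen I 2, that of Slc5a3 in Collagen I vs Fibronectin was lost (nearest to 0, 0.27). In Fibronectin vs Geltrex 2 of the tonicity targets were called higher, Slc5a3 (0.49) and Slc6a6 (0.23), and 2 lower, Akr1b3 (-0.34) and Hspa1b (-0.46). Without Fibronectin 1 or Geltrex 1 both of the higher calls were lost (lowest values 0.40 and 0.20), and that of Slc6a6 held in 7 of 20 refits and, of the fits without 1 sample, only without Control 1, Control 3, Collagen I 3 or Fibronectin 3.

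**Figure D5:**
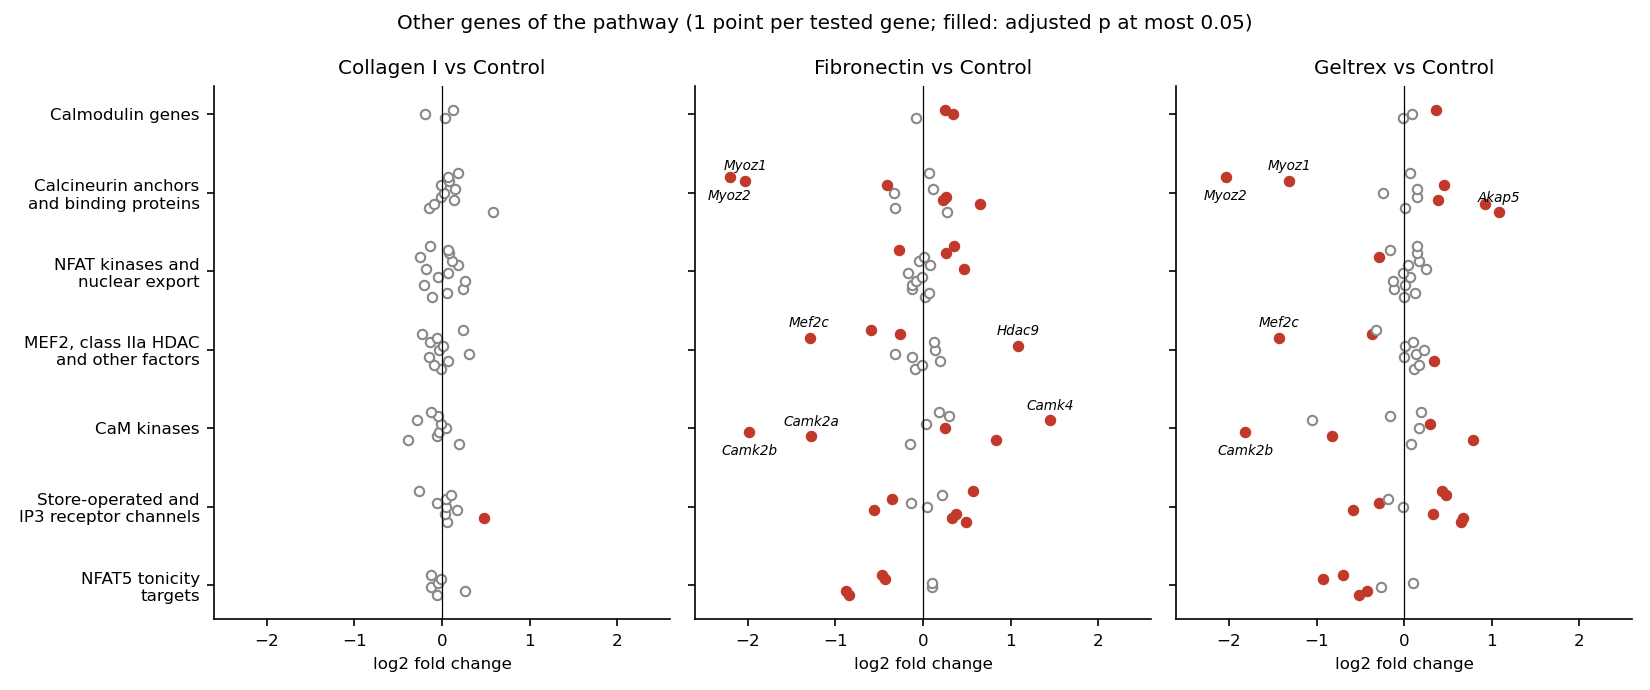
Log2 fold changes against Control (horizontal axes) of the tested genes in the 7 other pathway lists, 1 point per gene, for Collagen I, Fibronectin and Geltrex; filled points have an adjusted p of at most 0.05. The Collagen I panel has 1 filled point, Itpr2 at 0.48, and Myoz2 lies at -2.21 and -2.04 on the other coatings.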

How the data were processed

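The values are the deposited raw read counts per gene, which the authors made from paired-end reads with FastQC, Trimmomatic, HISAT2 and featureCounts; the genome build, annotation release, strand setting and versions are not stated. All 55536 of 55536 identifiers are in GENCODE M21 (GRCm38), used here for positions and exon lengths. In R 4.3.3, edgeR 4.0.16 (limma 3.58.1) filtered genes at a minimum count of 10 and minimum total of 15, scaled by TMM and fitted the 4 groups of 3 samples in 1 quasi-likelihood model with 8 residual degrees of freedom. In 6 two-sided comparisons, p-values were adjusted by Benjamini-Hochberg over 14499 genes, and a gene was called at an adjusted p of at most 0.05. The steps were tested on simulated data.

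The 10 members and the lists were chosen with earlier results of these data known. All members are named; of each other list, genes among the 3 highest and 3 lowest called in a comparison, and those that failed the filter; and the 5 genes most correlated with Rcan1, Ppp3ca and the member with the widest range. Some genes that these rules would name are not reported here. Alternatives were RLE scaling, DESeq2 1.42.0, no filter or 10 counts in every sample, only the 2 groups compared, a replicate block, a fold of at least 2, leaving out each sample, and 2 fits added later. Totals of 22520404 to 27351766 counts set the precision, and each count carries counting error beside the spread between samples. Promoters and motifs come from RefSeq, GRCm38.p6.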

Additional observations from a re-analysis of the deposited data

How the results depend on the processing

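Each member's log2 fold change in 6 comparisons was recomputed under 20 settings, the fold minimum aside; of results called, 270 kept direction and call, 68 lost the call and 2 reversed, and of those not called 803 kept their side, 23 became called and 34 reversed. Values in order of Collagen I, Fibronectin and Geltrex vs Control, then Collagen I vs Fibronectin, Collagen I vs Geltrex and Fibronectin vs Geltrex follow. Without 1 sample, members called ran 0 to 1, 1 to 6, 1 to 3, 1 to 3 in Collagen I vs Geltrex and 0 to 3 in Fibronectin vs Geltrex, and genes called 44 to 233 in Collagen I vs Control and 1717 to 3436 in Fibronectin vs Geltrex. In these fits the sign turned, within the ranges given, for Ppp3ca in Fibronectin vs Control (-0.075 to 0.012), Geltrex vs Control (-0.0087 to 0.077) and Collagen I vs Geltrex (-0.0046 to 0.13). It also turned in Geltrex vs Control for Ppp3r1 (-0.067 to 0.032), Nfatc3 (-0.062 to 0.12) and Nfat5 (-0.027 to 0.15). So it did for Rcan3 in Collagen I vs Fibronectin (-0.067 to 0.034), Collagen I vs Geltrex (-0.11 to 0.053) and Fibronectin vs Geltrex (-0.11 to 0.057), and for Nfatc4 in Collagen I vs Fibronectin (-0.049 to 0.31). DESeq2 called 462 genes in Collagen I vs Control and 2 members in Fibronectin vs Geltrex, and no filter 581 genes and 2 members. With 10 counts in every sample, 1 member was called in Fibronectin vs Geltrex and Rcan3 was 0.022 in Collagen I vs Fibronectin. With only the 2 groups compared, members called were 0 in Collagen I vs Control, 2 in Fibronectin vs Control and 3 in Fibronectin vs Geltrex, genes 39 in Collagen I vs Control, and Rcan3 0.0053 in Collagen I vs Fibronectin. With the replicate block, Nfat5 alone, 1 member, was called in Fibronectin vs Geltrex, and Rcan3 was 0.0014 in Collagen I vs Fibronectin; nothing in the labels pairs the samples. A fold of at least 2 left 0, 0, 1, 0, 0 and 0 members and 19, 965, 1325, 1226, 1352 and 577 genes. After seeing the data, 2 settings were chosen. Summing the Geltrex samples into 1, since they were the closest to each other, takes the spread from the other groups alone and so does not test the Geltrex calls; it left 0 members in Collagen I vs Control, Geltrex vs Control and Collagen I vs Geltrex, and 45, 2079, 2130 and 703 genes in these and Fibronectin vs Geltrex. The length gap as a covariate gave 0 members and 2970 genes in Fibronectin vs Control, 1 and 2478 in Collagen I vs Fibronectin, 1 member in Collagen I vs Geltrex (Nfatc3, reversed) and 512 genes in Collagen I vs Control. It reversed Nfatc3 in Collagen I vs Control (0.016), Fibronectin vs Control (-0.044), Geltrex vs Control (-0.19), Collagen I vs Fibronectin (0.060) and Collagen I vs Geltrex (0.21). In Fibronectin vs Control it reversed Ppp3ca (0.034), Ppp3cb (-0.11) and Ppp3r1 (-0.083), in Geltrex vs Control Nfat5 (-0.13), and in Collagen I vs Fibronectin Ppp3cb (0.087), Ppp3r1 (0.062) and Nfatc4 (-0.62). In Collagen I vs Geltrex it reversed Ppp3r1 (0.11), Nfatc4 (-0.025) and Nfat5 (0.10), and in Fibronectin vs Geltrex Rcan3 (0.0024). The cause was not tested. Depth limits Nfatc4 most, at 36 to 180 counts per sample.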
